A study of Mus musculus with 12 samples.

Results

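Genes that interferons switch on and genes that recognise foreign or double-stranded RNA were followed in mouse T cells given the hypomethylating drug azacitidine (AzaC). The set was a list of 38 gene symbols. A gene counted as measured where a row of the array table was annotated with its symbol and no other, and the row with the highest mean over the arrays was used where a gene had several. This gave 35 of the 38 genes, out of 22180 genes measured by the same rule. Oas1a, Ifi44 and Dtx3l were not analysed here.

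The study asked how AzaC acts on regulatory and conventional T cells that had been activated side by side. Regulatory T cells taken from the spleen (nTregs) were mixed with Treg-depleted T cells, 1 to 10, and stimulated for 2 days through CD3 and CD28 with human IL-2 at 500 U/mL. They were then kept for 2 more days in 1 µM AzaC or in PBS, so every group, controls included, was activated and held in IL-2. CD4+ cells without DsRed and with Foxp3GFP were sorted as nTregs, and CD4+ cells with DsRed and without Foxp3GFP were sorted as conventional T cells (here CD4 cells). Total RNA of each sort was hybridised to Affymetrix arrays, 3 for each of the 4 groups, which were nTregs in PBS, nTregs in AzaC, CD4 cells in PBS and CD4 cells in AzaC. The strain label on all 12 arrays is the cross of B6.Foxp3GFP with B6.Cg-Tg(CAG-DsRed*MST)1Nagy/J, whereas the growth protocol takes the nTregs from B6.Foxp3GFP mice and the Treg-depleted cells from the cross with B6.CAGDSRED. Foxp3GFP is a reporter of the Foxp3 gene and the CAG promoter is active in nearly all cells, so the colours record lineage and origin at the time of the sort. Whether replicate arrays stem from separate mice or cultures is not stated, and p-values then measure only the spread between these samples, which may be technical.

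In the textbook pathway, the helicases RIG-I (Ddx58) and MDA5 (Ifih1) bind double-stranded RNA and signal through Mavs to the factors Irf3 and Irf7, which switch on interferon genes. Secreted interferon binds its receptor and activates a complex that holds Stat2 and Irf9 and binds interferon-stimulated response elements in the promoters of the antiviral genes. In cancer cells, drugs that inhibit DNA methylation can let endogenous repeats be transcribed into double-stranded RNA and so set off the same response, which is known as viral mimicry. The values below bear on whether the transcripts of this response differed between AzaC and PBS.

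Promoters are shown because the response element is the sequence through which most of these genes are known to answer interferon. RefSeq promoters (GRCm38.p6) were matched for 29 of the 38 genes. The 10-letter motif, GAAA followed after any 2 bases by GAAA, read on either strand (on the other strand it reads TTTC, any 2 bases, TTTC), was present in the 250 bases before the start of 8 of these 29 genes (27.6%), against 936 of the 27025 genes of the whole promoter table (3.46%). The windows of the 7 measured genes that hold it follow, 5′ to 3′ on the strand of the gene, with motif letters in capitals. Overlapping matches run together, so Isg15 holds 3 overlapping matches and Bst2 holds 2. They lie at chr4:156200855-156200916 (minus strand, Isg15), chr8:71537567-71537622 (minus strand, Bst2), chr5:120777705-120777754 (minus strand, Oas3), chr10:128270256-128270305 (plus strand, Stat2), chr12:26456543-26456592 (minus strand, Rsad2), chr19:34583353-34583436 (plus strand, Ifit3) and chr19:34640765-34640833 (plus strand, Ifit1).
Isg15: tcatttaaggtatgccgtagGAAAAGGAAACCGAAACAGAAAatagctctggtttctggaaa
Bst2: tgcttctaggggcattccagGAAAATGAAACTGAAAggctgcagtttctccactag
Oas3: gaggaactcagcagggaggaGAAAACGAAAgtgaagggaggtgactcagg
Stat2: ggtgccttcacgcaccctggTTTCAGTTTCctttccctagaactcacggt
Rsad2: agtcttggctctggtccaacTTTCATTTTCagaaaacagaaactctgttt
Ifit3: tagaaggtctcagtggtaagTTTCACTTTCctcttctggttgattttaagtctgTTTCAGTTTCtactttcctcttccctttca
Ifit1: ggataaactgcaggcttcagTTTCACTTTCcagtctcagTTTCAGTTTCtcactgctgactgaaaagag

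The sorts carried the markers of their labels. Foxp3, the transcription factor that defines Tregs, had a log2 signal of 12.34 ± 0.31 (SD, n = 3) in PBS nTregs and 8.05 ± 0.24 in PBS CD4 cells, and all 5 Treg markers listed were higher in nTregs. With AzaC, 2 of the 5 rose in the CD4 sort: Foxp3 reached 9.62 ± 0.23 there (1.57, adjusted p = 0.000207), though still below nTregs, and Il2ra rose by 0.59 (adjusted p = 0.00383). The mean level of the 5 was 10.02 to 10.06 in PBS CD4 cells and 10.44 to 10.49 in AzaC CD4 cells. Values are log2 signals scaled between arrays, and array medians ran from 6.67 to 6.80. The array nTreg PBS 1 stood apart: its correlation over all genes with each of the other 11 averaged 0.972, where theirs averaged 0.979 to 0.987, and 22 of the 35 genes were below their own 12-array mean on it. The results that it moved most are given with and without it. Markers of another cell type moved with AzaC in nTregs: both CD8 T cell markers rose (Cd8a by 1.39 log2, adjusted p = 0.0018, and Cd8b1 by 0.72, adjusted p = 0.0213). The Cd8b1 call was lost without nTreg PBS 1 or any 1 of the nTreg AzaC arrays (adjusted p 0.0547 to 0.0974). Their mean level per array was 8.35 to 8.96 in PBS nTregs and 9.62 to 9.75 in AzaC nTregs. In CD4 cells neither passed (Cd8a 0.03, Cd8b1 -0.28). Of 6 markers of plasmacytoid dendritic cells, the main producers of type I interferon, 0 passed with AzaC in either population (2.02% and 1.76% of all genes did). In nTregs all 6 lay below 0 (median -0.16), where 41.9% of all genes lay above 0 (median -0.04). Their mean level was 6.42 to 6.69 in PBS and 6.35 to 6.39 in AzaC, without overlap. The median deviation over all genes, given below, fell without overlap there too. In CD4 cells 4 of the 6 lay above 0 (median 0.15), where 52.8% of all genes did, and the level was 6.34 to 6.55 in PBS and 6.37 to 6.71 in AzaC. All these levels lay below the medians of their own arrays, so a signal above background cannot be claimed for the list as a whole. Of the 3 NK cell markers measured, Nkg7 rose in both populations, by 0.57 in nTregs (adjusted p = 0.0424) and 0.75 in CD4 cells, while the other 2 lay below 0 in nTregs. The nTreg call was lost in 12 of 22 alternatives. The mean level of these 3 was 7.73 to 7.89 in PBS and 7.72 to 7.87 in AzaC in nTregs, and 7.68 to 7.79 in PBS and 7.99 to 8.31 in AzaC in CD4 cells. Of 8 myeloid markers Itgam fell in nTregs (-0.94, adjusted p = 0.0335, lost in 9 of 22 alternatives), and their mean level was 6.61 to 6.75 in PBS and 6.27 to 6.47 in AzaC. In CD4 cells Itgam did not pass, at 7.037, 7.155 and 7.828 in PBS and 6.873, 6.834 and 6.664 in AzaC, without overlap. Averaged over both populations it was 1 of 8 that passed (-0.74, adjusted p = 0.0102, held under all 21 alternatives), where 3.71% of all genes did. A log2 signal has no zero, so absence of a marker cannot be read from it. The part of these cells in the results below was not tested, and in sorted bulk RNA fewer cells of a type and less RNA per cell cannot be told apart.

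**Figure D1:**
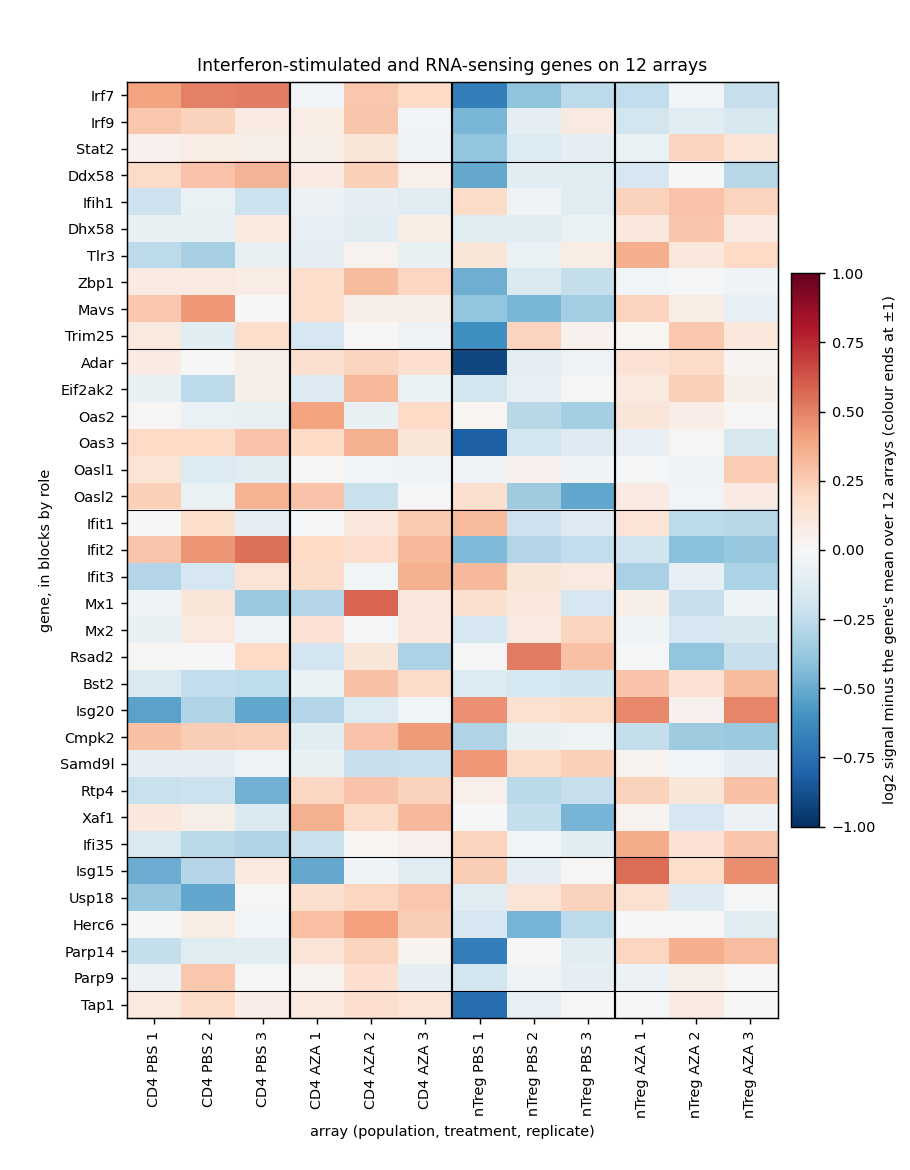
Log2 signal of the 35 measured genes (vertical axis, in blocks by role) on the 12 arrays (horizontal axis), drawn as the difference from each gene's own mean over the 12 arrays with the colour scale ending at ±1. The 3 arrays of nTregs in PBS hold most of the low values among factors, sensors and RNA enzymes, and the antiviral effectors show no common pattern over the arrays.

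Over the 35 genes as a whole, the nTreg PBS arrays were the low ones. The median deviation of the genes from their own 12-array mean was -0.13, -0.09 and -0.09 log2 on nTreg PBS arrays 1, 2 and 3. On the nTreg AzaC arrays it was 0.04, 0.01 and 0.00, on the CD4 PBS arrays 0.01, -0.01 and 0.01, and on the CD4 AzaC arrays 0.06, 0.17 and 0.07. The PBS and AzaC arrays of each population did not overlap in this median, nor did the PBS arrays of the 2 populations. The same groups did not overlap in the median deviation over all genes, so the lack of overlap is not particular to the 35. Over all genes it was 0.038, 0.005 and 0.003 on nTreg PBS and -0.017, -0.012 and -0.019 on nTreg AzaC arrays, the opposite direction. On CD4 PBS arrays it was -0.001, 0.002 and -0.003, and on CD4 AzaC arrays 0.018, 0.005 and 0.008, the same direction.

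In nTregs none of the 35 genes passed the test for AzaC against PBS, so no sensor, factor or effector of the set can be said to have risen or fallen there. The count was 0 of 35 at adjusted p under 0.05 (limma, Benjamini-Hochberg over 22180 genes), where 2.02% of all genes passed. At unadjusted p under 0.05 it was 14 of 35 (40% against 16.8% of all genes), 11 higher and 3 lower with AzaC, where 9.11% and 7.66% of all genes were. The log2 difference was above 0 for 26 of the 35 (74.3% against 41.9% of all genes). Its median was 0.24 beside -0.04 over all genes, and it ran from -0.48 to 0.57. The 95% intervals of the 35 differences, each taken singly, ended between -0.81 and 0.89, so a change of 1 log2 unit in either direction lay outside all of them. PBS and AzaC arrays did not overlap for 15 of the 35 genes (42.9%, 12 higher and 3 lower), against 24.5% of all genes (11% higher and 13.5% lower). Without nTreg PBS 1, 2 genes passed (1.85% of all genes did), Rtp4 higher and Rsad2 lower, and the median was 0.17. With array weights, which gave nTreg PBS 1 a weight of 0.194, 8 passed (7 higher and 1 lower), where 5.82% of all genes did.

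**Figure D2:**
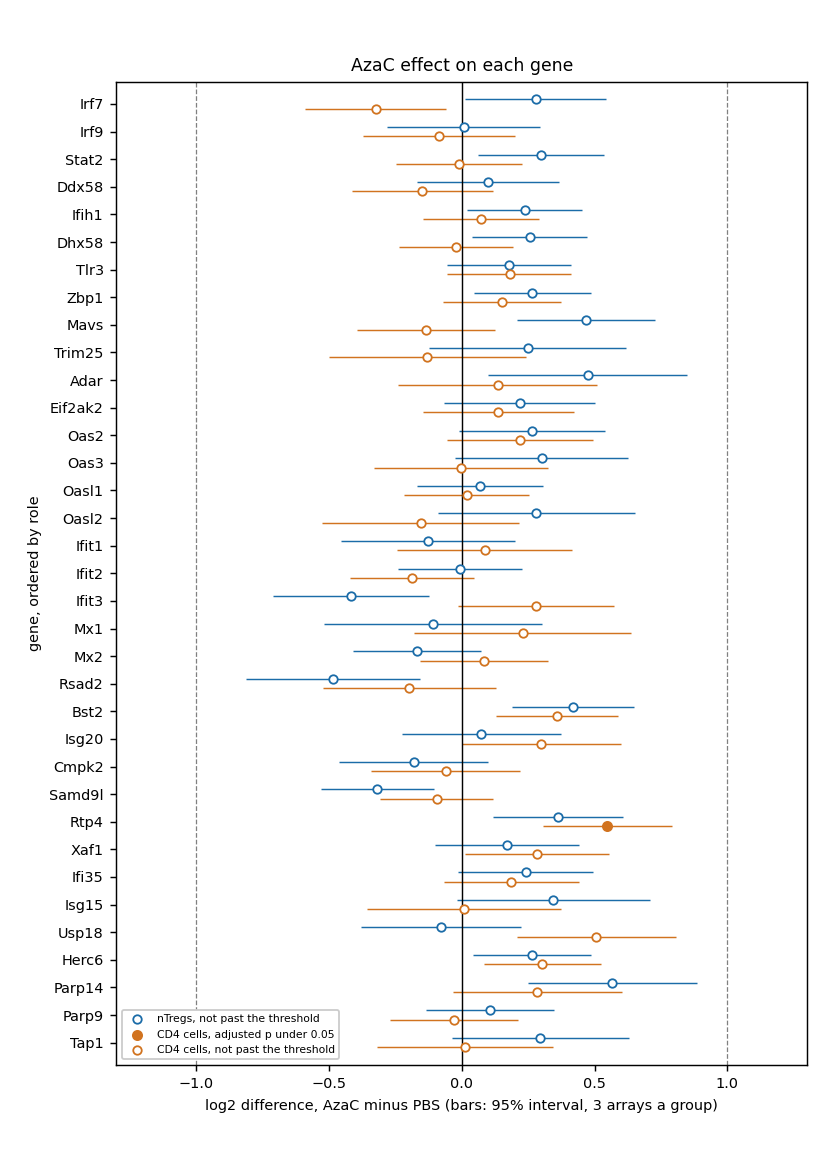
Log2 difference AzaC minus PBS (horizontal axis) for each of the 35 genes (vertical axis, ordered by role), with nTregs in blue and CD4 cells in orange. Bars are 95% intervals from the fit over all genes, filled points passed at adjusted p under 0.05 and dashed lines mark ±1. No interval reaches a dashed line, and Rtp4 in CD4 cells is the single filled point.

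The factors and sensors lay above 0 in nTregs while the antiviral effectors were divided. All 3 transcription factors (Irf7, Irf9 and Stat2), all 7 sensors and adaptors and all 6 enzymes that act on double-stranded RNA had differences above 0, with medians of 0.28, 0.25 and 0.27. After quantile normalisation was repeated 2 of 3, 7 of 7 and 6 of 6 did. Without nTreg PBS 1 it was 2 of 3, 6 of 7 and 6 of 6, with medians of 0.16, 0.22 and 0.18. Of the 13 antiviral effectors 5 were above 0 and the median was -0.11, or 6 and -0.04 without that array. Of the 5 genes for ISG15 and for ubiquitin or ADP-ribose transfer 4 were above 0, with a median of 0.27, and Tap1, a subunit of the transporter that loads peptides for MHC class I, stood at 0.30 (adjusted p = 0.35), or 0.06 without it.

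Mavs, the mitochondrial adaptor that both RNA helicases signal through, was the sensor gene with the smallest p. In nTregs it lay at 8.04, 7.98 and 8.09 in PBS and at 8.66, 8.51 and 8.35 in AzaC. Every AzaC array was above every PBS array, but the difference of 0.47 log2 (SE 0.12) did not pass (adjusted p = 0.0658). It passed when CD4 PBS 3 was left out of the shared estimate of the spread (adjusted p = 0.0386), when arrays were centred on their medians, when dim genes were removed and when arrays were weighted. In CD4 cells Mavs lay at 8.70, 8.87 and 8.43 in PBS and at 8.61, 8.49 and 8.50 in AzaC, which overlapped (-0.14, adjusted p = 0.618). The helicases themselves differed less in nTregs: 0.10 for Ddx58, 0.24 for Ifih1 and 0.26 for Dhx58, the regulatory helicase LGP2, with adjusted p of 0.708, 0.26 and 0.222. Ddx58 stood at -0.03 without nTreg PBS 1. Trim25, a ubiquitin ligase that activates RIG-I, differed by 0.25 in nTregs and -0.13 in CD4 cells, and was low on nTreg PBS 1 (8.98 beside 9.82 and 9.64), without which it stood at 0.00. Zbp1, which binds nucleic acids in the Z form, stood at 10.32, 10.66 and 10.57 in PBS and at 10.78, 10.79 and 10.77 in AzaC (0.27, adjusted p = 0.214, or 0.17 without nTreg PBS 1). Its AzaC arrays were close together and all above the PBS arrays. In CD4 cells Zbp1 lay at 10.89, 10.9 and 10.88 in PBS and at 10.98, 11.12 and 11.02 in AzaC, also without overlap (0.15, adjusted p = 0.5). Tlr3, the endosomal receptor for double-stranded RNA, lay between 4.89 and 5.59 on all 12 arrays, below every array median, so that a signal above background cannot be claimed for it.

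Irf7, the factor that amplifies interferon production, had differences of opposite sign in the 2 populations. In nTregs it lay at 8.14, 8.41 and 8.56 in PBS and at 8.57, 8.79 and 8.59 in AzaC (0.28, SE 0.12, adjusted p = 0.277, or 0.16 without nTreg PBS 1). In CD4 cells it lay at 9.22, 9.32 and 9.33 in PBS and at 8.79, 9.08 and 9.02 in AzaC (-0.32, adjusted p = 0.235). Neither pair of groups overlapped, with AzaC higher in nTregs and lower in CD4 cells, and neither difference passed. Stat2, a subunit of the factor that binds the response element, lay at 9.99, 10.24 and 10.29 in PBS nTregs and at 10.31, 10.60 and 10.51 in AzaC nTregs (0.30, adjusted p = 0.195), whereas in CD4 cells the difference was -0.01. Its DNA-binding partner Irf9 differed by 0.01 in nTregs (-0.14 without nTreg PBS 1) and -0.09 in CD4 cells.

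Adar, the enzyme that edits adenosine to inosine in double-stranded RNA, had one of the larger differences in nTregs, and it leaned on 1 array. It lay at 8.76, 9.58 and 9.62 in PBS and at 9.82, 9.87 and 9.70 in AzaC, a difference of 0.47 (SE 0.18, adjusted p = 0.193). The low value was that of nTreg PBS 1, and without it the difference was 0.20 (adjusted p = 0.394). In CD4 cells Adar lay at 9.76, 9.67 and 9.74 in PBS and at 9.84, 9.89 and 9.84 in AzaC, without overlap (0.14, adjusted p = 0.74). The array nTreg PBS 1 was also low for Oas3 (8.42 beside 9.04 and 9.11), a synthase of the 2-5A messenger that activates RNase L, and for Tap1 (12.02 beside 12.69 and 12.78). Oas3 in AzaC nTregs lay at 9.15, 9.24 and 9.07, which overlapped with PBS (0.30, or 0.08 without nTreg PBS 1). Eif2ak2, the kinase PKR that halts translation on double-stranded RNA, differed by 0.22 in nTregs and 0.14 in CD4 cells. Oas2, Oasl1 and Oasl2 differed by 0.27, 0.07 and 0.28 in nTregs and by 0.22, 0.02 and -0.15 in CD4 cells, none past the test. The Oas, Oasl and Ifit genes have close paralogs, and cross-hybridisation between them was not tested.

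Rsad2 (viperin, which makes a chain-terminating nucleotide that stops viral RNA synthesis) and Ifit3 (whose human counterpart binds and stabilises the RNA-binding protein IFIT1) were the effectors with the largest negative differences in nTregs. Rsad2 lay at 7.26, 7.78 and 7.56 in PBS and at 7.24, 6.87 and 7.03 in AzaC (-0.48, SE 0.15, adjusted p = 0.131). Ifit3 lay at 8.40, 8.20 and 8.17 in PBS and at 7.76, 7.996 and 7.77 in AzaC (-0.42, SE 0.14, adjusted p = 0.149). In both genes every AzaC array was below every PBS array. Without nTreg PBS 1 the difference for Rsad2 was -0.62 and passed (adjusted p = 0.05 after rounding). Samd9l, an antiviral inhibitor of translation, was the third gene without overlap and lower in AzaC nTregs, at 9.35, 9.12 and 9.16 in PBS and 8.96, 8.90 and 8.82 in AzaC (-0.32, adjusted p = 0.127). Cmpk2, a mitochondrial nucleotide kinase whose gene lies next to Rsad2 with no coding gene between them, differed by -0.18 in nTregs. Ifit1 and Ifit2, which bind foreign RNA, differed by -0.13 and -0.01, and the GTPases Mx1 and Mx2 by -0.11 and -0.17. Ifi35, an interferon-induced protein of the leucine zipper type, differed by 0.24 in nTregs and 0.19 in CD4 cells. Mx1 and Mx2 lay between 5.21 and 6.22 on all arrays, below the array medians.

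In CD4 cells AzaC raised 1 gene of the set, Rtp4, which encodes a receptor chaperone that also restricts viruses. Rtp4 lay at 9.07, 9.08 and 8.81 in PBS and at 9.50, 9.58 and 9.52 in AzaC, without overlap. It rose by 0.55 log2 (SE 0.11, 95% interval 0.30 to 0.79, 1.46-fold, adjusted p = 0.0264). The count was 1 of 35, where 1.76% of all genes passed (0.83% higher). At unadjusted p under 0.05 it was 7 of 35 (20% against 15.2%), 6 higher and 1 lower, where 7.45% and 7.77% of all genes were. Differences were above 0 for 21 of 35 (60% against 52.8% of all genes), with a median of 0.07 beside 0.01 over all genes and a range from -0.32 to 0.55. Groups did not overlap for 10 of 35 (28.6%, 9 higher and 1 lower), against 23.6% of all genes (11.4% higher and 12.2% lower). The call for Rtp4 was lost without any 1 of the 6 CD4 arrays, where its value was 0.46 to 0.59 and its adjusted p 0.0559 to 0.107. No 95% interval of the 35 extended past 0.81 or below -0.59.

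The other genes of the set with no overlap in CD4 cells were mostly effectors and enzymes of ISG15 or ADP-ribose transfer. Usp18, the protease that takes ISG15 off proteins and restrains interferon receptor signalling, lay at 8.64, 8.50 and 9.03 in PBS and at 9.17, 9.23 and 9.28 in AzaC (0.51, SE 0.14, adjusted p = 0.0943). CD4 PBS 3 held the highest PBS value, and without it Usp18 passed. It passed too without nTreg PBS 1 (adjusted p from 0.0289 to 0.0389 for the 2 settings). Xaf1, a gene linked to apoptosis, differed by 0.28 (adjusted p = 0.306) and Isg20, an exonuclease that degrades viral RNA, by 0.30 (adjusted p = 0.327). The 3 transcription factors all lay below 0, with a median of -0.09. The sensors lay around 0, at a median of -0.02 that turned to 0.04 when quantile normalisation was repeated. The effectors had a median of 0.19.

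Averaged over both populations, 4 genes rose with AzaC and 0 fell, a share of 11.4% where 3.71% of all genes passed (2.04% higher and 1.66% lower). This average uses the same 12 arrays as the 2 comparisons above and a smaller error, so it is a second reading of those values. Rtp4 rose by 0.46 log2 (SE 0.08, adjusted p = 0.00501) and Bst2, or tetherin, which holds budding viruses at the cell surface, rose by 0.39 (SE 0.08, adjusted p = 0.00982). Parp14, a transferase of single ADP-ribose units, rose by 0.43 (SE 0.11, adjusted p = 0.0372), and Herc6, the main ligase that attaches ISG15 in mice, rose by 0.28 (SE 0.07, adjusted p = 0.0459). The calls for Rtp4 and Bst2 held under all 21 other settings and array sets tried, and those for Parp14 and Herc6 under 11 and 6 of the 21. When 1 array at a time was left out, Parp14 lost its call in 9 of 12 cases (all but the nTreg PBS arrays, adjusted p 0.0625 to 0.102) and Herc6 in 11 of 12 (all but nTreg PBS 1, adjusted p 0.0692 to 0.119).

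The 4 genes were higher with AzaC on the arrays of both populations. Rtp4 in nTregs lay at 9.34, 9.02 and 9.07 in PBS and at 9.52, 9.41 and 9.59 in AzaC (0.36, adjusted p = 0.13), next to the CD4 values above. Bst2 lay at 11.87, 11.83 and 11.81 in PBS nTregs and at 12.29, 12.15 and 12.32 in AzaC nTregs (0.42, adjusted p = 0.0645). In CD4 cells Bst2 lay at 11.85, 11.76 and 11.75 in PBS and at 11.94, 12.30 and 12.20 in AzaC (0.36, adjusted p = 0.122). For both genes each AzaC array was above each PBS array within its population.

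Parp14 in nTregs lay at 9.10, 9.78 and 9.67 in PBS and at 10.00, 10.15 and 10.09 in AzaC, the largest difference of the 35 there (0.57, SE 0.15, 95% interval 0.25 to 0.89, adjusted p = 0.0689). The low PBS value was again nTreg PBS 1, and without that array the difference was 0.36 (adjusted p = 0.11). In CD4 cells Parp14 lay at 9.55, 9.66 and 9.68 in PBS and at 9.91, 10.01 and 9.81 in AzaC (0.28, adjusted p = 0.382). Herc6 lay at 9.59, 9.29 and 9.49 in PBS nTregs and at 9.76, 9.77 and 9.64 in AzaC nTregs (0.27, adjusted p = 0.218). In CD4 cells it lay at 9.76, 9.83 and 9.73 in PBS and at 10.06, 10.17 and 10.00 in AzaC (0.30, adjusted p = 0.18). Parp14 and Herc6 also had every AzaC array above every PBS array of the same population. Parp9, a partner of Parp14 whose gene lies in the same cluster, differed by 0.10 in nTregs and -0.03 in CD4 cells.

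**Figure D3:**
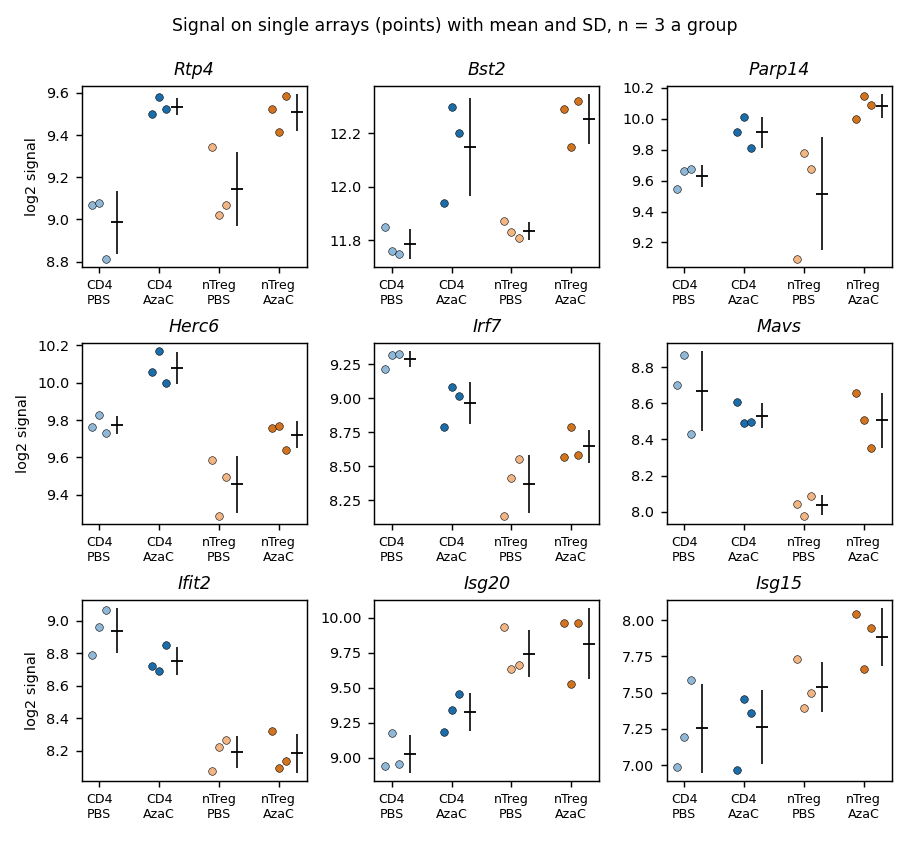
Log2 signal (vertical axis) of 9 genes of the set on each array, by group (horizontal axis), with points for arrays and the group mean ± SD (n = 3). Rtp4, Bst2, Parp14 and Herc6 are higher with AzaC in both populations, Irf7 and Mavs are lowest in PBS nTregs, Ifit2 is lower and Isg20 higher in nTregs under both treatments, and Isg15 has its highest mean in AzaC nTregs.

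Isg15 itself, the ubiquitin-like protein these enzymes attach and remove, was not among the genes that rose. It lay at 7.73, 7.39 and 7.50 in PBS nTregs and at 8.04, 7.66 and 7.95 in AzaC nTregs (0.34, adjusted p = 0.322), which overlapped. In CD4 cells it lay at 6.99, 7.19 and 7.58 in PBS and at 6.97, 7.45 and 7.36 in AzaC (0.01). Among the 7 genes whose promoter windows are printed above, the AzaC difference in nTregs was 0.34 for Isg15, 0.42 for Bst2, 0.30 for Oas3, 0.30 for Stat2, -0.48 for Rsad2, -0.42 for Ifit3 and -0.13 for Ifit1. In CD4 cells Bst2 at 0.36 and Ifit3 at 0.28 were the highest of the 7 and Rsad2 at -0.20 the lowest. Genes that hold the motif thus lay on both sides of 0 in both populations, and none of the 7 passed in either alone.

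No gene of the set passed the test of whether its AzaC difference in nTregs departed from that in CD4 cells. The count was 0 of 35 in limma (0.203% of all genes passed), and 4 of 35 at unadjusted p under 0.05 (11.4% against 17.5% of all genes). These 4 were Ifit3 (-0.70, SE 0.19, adjusted p = 0.169), Mavs (0.60, SE 0.17, adjusted p = 0.175), Irf7 (0.60, SE 0.18, adjusted p = 0.177) and Usp18 (-0.59, SE 0.20, adjusted p = 0.207). Ifit3 stood at 7.79, 7.91 and 8.22 in PBS CD4 cells and at 8.27, 8.05 and 8.44 in AzaC CD4 cells (0.28, adjusted p = 0.348), the direction opposite to nTregs. With array weights 3 genes passed, Mavs, Ifit3 and Usp18, where 1.81% of all genes did. The median of the 35 differences was 0.08 beside -0.04 over all genes, and centring each array on its median put these at 0.21 and 0.09.

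Under PBS 8 of the 35 genes differed between nTregs and CD4 cells, 22.9% where 8.01% of all genes passed (3.9% higher in nTregs and 4.12% lower). Irf7, Ifit2, Mavs, Ddx58, Oas3 and Zbp1 were lower in nTregs, and Isg20 and Samd9l were higher. Without nTreg PBS 1 there were also 8 (7.25% of all genes passed), with Zbp1 and Samd9l lost and Oasl2 and Herc6 gained, both lower. With arrays centred on their medians the split was 1 higher and 7 lower (7.61% of all genes passed). After repeated quantile normalisation it was 3 and 5 (7.26%). The 3 factors lay below 0 (median -0.35), 5 of the 7 sensors did (median -0.18), and 9 of the 13 effectors lay above 0 (median 0.13), a position that 54.5% of all genes held. With nTreg PBS 1 left out the medians were -0.20, -0.07 and 0.06, with 3 of the 7 sensors above 0. At unadjusted p under 0.05 there were 18 of 35 (51.4% against 23%), 5 higher and 13 lower, where 11.1% and 11.9% of all genes were. Groups did not overlap for 15 (42.9% against 26.7%), 4 higher and 11 lower, where 13.5% and 13.2% of all genes were. The median over the 35 was -0.11 beside 0.03 over all genes.

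**Figure D4:**
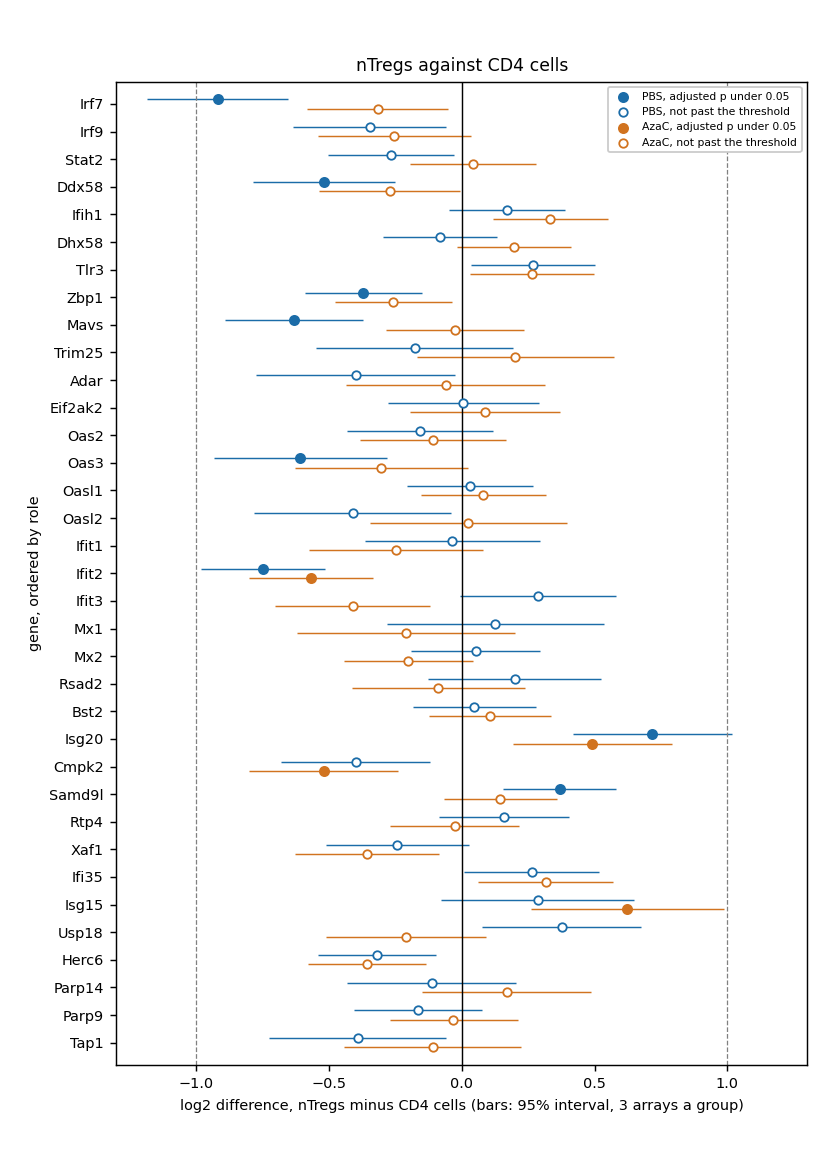
Log2 difference nTregs minus CD4 cells (horizontal axis) for each of the 35 genes (vertical axis, ordered by role), under PBS in blue and with AzaC in orange, with 95% intervals. Filled points passed at adjusted p under 0.05 and dashed lines mark ±1. Under PBS, 6 filled points lie below 0 and 2 above, and with AzaC 2 lie on each side.

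Irf7 had the largest of these differences. Its values, given above, put all 3 PBS CD4 arrays between 9.22 and 9.33 and all 3 PBS nTreg arrays between 8.14 and 8.56. It was lower in nTregs by 0.92 log2 (difference -0.92, SE 0.12, adjusted p = 0.000352). Ifit2 lay at 8.79, 8.96 and 9.07 in PBS CD4 cells and at 8.08, 8.22 and 8.27 in PBS nTregs (-0.75, SE 0.11, adjusted p = 0.000668). Mavs was lower in nTregs too (-0.63, SE 0.12, adjusted p = 0.00534). Isg20 lay at 8.94, 9.18 and 8.96 in PBS CD4 cells and at 9.94, 9.63 and 9.66 in PBS nTregs (0.72, SE 0.14, adjusted p = 0.00572). None of these 4 genes overlapped between the populations, and their calls held under all 22 other settings and array sets.

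The other 4 calls were less steady. Ddx58 lay at 9.86, 9.96 and 10.01 in PBS CD4 cells and at 9.16, 9.56 and 9.55 in PBS nTregs (-0.52, SE 0.12, adjusted p = 0.0199), and the call was lost without CD4 PBS 2 or 3 (adjusted p 0.0636 to 0.0707). Oas3 lay at 9.43, 9.43 and 9.52 in PBS CD4 cells, above every PBS nTreg array (-0.61, SE 0.15, adjusted p = 0.0251). It stood at -0.39 without nTreg PBS 1 (adjusted p = 0.0369), and was lost without any 1 of the CD4 PBS arrays (adjusted p 0.0612 to 0.0845). Samd9l lay at 8.83, 8.83 and 8.87 in PBS CD4 cells, below the nTreg arrays (0.37, SE 0.10, adjusted p = 0.0352), and was lost without 8 of the 12 arrays in turn (0.0506 to 0.0958). Zbp1 lay at 10.89, 10.90 and 10.88 in PBS CD4 cells (-0.37, SE 0.10, adjusted p = 0.0405) and was lost in 9 of 12 such cases (0.0557 to 0.108). When only the 2 PBS groups were fitted, Irf7, Mavs, Ifit2 and Isg20 passed, where 2.92% of all genes did. Cell type markers differed between the sorts as well, where 8.01% of all genes passed. Of 4 markers of CD4 T cells, 2 were lower in PBS nTregs, Cd4 (-0.83) and Cd3e (-0.77). The array nTreg PBS 1 was low for both (Cd4 10.37 beside 11.08 and 11.08, Cd3e 11.79 beside 12.58 and 12.63). The other PBS nTreg arrays also lay below every PBS CD4 array. Of other cell types, 1 of 4 B cell markers (Cd79b, 0.80, adjusted p = 0.00691), 1 of 8 myeloid markers (Cd209a, 0.87, adjusted p = 0.00149) and 1 of 6 plasmacytoid markers (Pacsin1, 0.47, adjusted p = 0.0346) were higher. The mean level of the B cell list was 6.601 to 6.792 in PBS nTregs and 6.36 to 6.52 in PBS CD4 cells, and that of the myeloid list 6.61 to 6.75 and 6.35 to 6.46. The plasmacytoid list lay at 6.42 to 6.69 and 6.34 to 6.55. The part of these differences in the calls was not tested.

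With AzaC 4 of the 35 genes differed between the populations, 11.4% where 6.75% of all genes passed (4.57% higher in nTregs and 2.19% lower). Ifit2 was lower in nTregs, at 8.32, 8.10 and 8.14 against 8.72, 8.69 and 8.85 in CD4 cells (-0.57, SE 0.11, adjusted p = 0.00495). Cmpk2 was lower as well, at 9.26, 9.14 and 9.13 against 9.38, 9.78 and 9.93 (-0.52, SE 0.13, adjusted p = 0.0274). In both the groups did not overlap. Isg15 was higher in nTregs (0.62, SE 0.17, adjusted p = 0.0409), and so was Isg20, at 9.96, 9.52 and 9.97 against 9.18, 9.34 and 9.45 (0.49, SE 0.14, adjusted p = 0.0499). Centred arrays gave 3 higher and 1 lower (7.49% of all genes passed), and repeated quantile normalisation gave 0 higher and 3 lower (6.57%). The call for Ifit2 held under all 22 alternatives, whereas leaving out 1 array lost Isg20 in 10 of 12 cases (adjusted p 0.0556 to 0.203), Isg15 in 5 (0.0571 to 0.2) and Cmpk2 in 5 (0.0594 to 0.13). Both CD8 markers were higher in AzaC nTregs than in AzaC CD4 cells (Cd8a 1.36, Cd8b1 1.27), with a mean level of 9.62 to 9.75 against 8.11 to 8.54. So were 1 of 4 B cell markers (Cd79b, 1.08) and 1 of 8 myeloid markers (Cd209a, 0.66), with list means of 6.57 to 6.76 against 6.29 to 6.56 and of 6.27 to 6.47 against 6.31 to 6.48. Their part in these calls was not tested.

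Irf7 and Mavs, called under PBS, were not called with AzaC. The nTreg minus CD4 difference was -0.32 for Irf7 (adjusted p = 0.16) and -0.03 for Mavs (adjusted p = 0.928), beside -0.92 and -0.63 under PBS, and the change from PBS to AzaC is the difference between AzaC effects tested above, which did not pass. Groups did not overlap for 20 of the 35 genes (57.1% against 32.3% of all genes), 7 higher and 13 lower in nTregs, where 15.1% and 17.2% of all genes were. At unadjusted p under 0.05 there were 13 (37.1% against 20.5%), 5 higher and 8 lower, where 10.7% and 9.8% of all genes were. Without nTreg PBS 1, which enters only through the shared spread, 7 of the 35 passed, where 11.1% of all genes did. The median of the 35 was -0.06 beside -0.04 over all genes, and it turned to 0.02 when arrays were centred. The AzaC comparisons and the population comparisons share arrays, so no overlap between their gene lists is given.

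Genes of the pathway outside the set were read from lists of ligands, receptors, sensors, further interferon-stimulated genes and silencers of endogenous retroviruses. Of 20 interferon ligand genes, 0 passed with AzaC in nTregs and 0 in CD4 cells, where 2.02% and 1.76% of all genes did. At unadjusted p under 0.05 there was 1 in nTregs, where 16.8% of all genes passed, and 10 in CD4 cells, where 15.2% did. Of these 10, 9 were higher (7.45% of all genes). Most of the listed ligands are Ifna genes, which are close paralogs, and cross-hybridisation between them was not tested. The 10 therefore cannot be counted as separate signals, and the levels of the Ifna genes are not given here. Ifnb1, the first interferon that RNA sensing induces, lay between 4.48 and 5.05 on all 12 arrays, well below the array medians, and differed by -0.19 in nTregs (adjusted p = 0.475) and -0.02 in CD4 cells (adjusted p = 0.964). Ifng, the T cell interferon, differed by 0.04 and 0.34 (adjusted p = 0.86 and 0.146). Of 14 receptor and signalling genes, 1 passed in nTregs and 0 in CD4 cells (2.02% and 1.76% of all genes). The gene that passed was Ifngr2, a chain of the interferon gamma receptor, which rose in nTregs (0.60, adjusted p = 0.0438). At unadjusted p under 0.05 there were 6 in nTregs, all higher, where 16.8% of all genes were (9.11% higher). In CD4 cells there were 2, where 15.2% of all genes were. The Ifngr2 call was lost in 11 of 22 alternatives, 9 of them with 1 array left out, nTreg PBS 1 among these (adjusted p 0.0593 to 0.203). In CD4 cells Ifngr2 lay at 9.101, 8.984 and 8.563 in PBS and at 9.322, 9.239 and 9.208 in AzaC, without overlap. Averaged over both populations 1 of the 14 passed, where 3.71% of all genes did. This was Ifngr2 (0.49, adjusted p = 0.0128), and the call held under all 21 alternatives. Ifnar1, a chain of the type I interferon receptor, stood at 0.56 in nTregs (adjusted p = 0.263) with nTreg PBS 1 at 9.14 beside 10.21 and 10.13.

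Of 19 further sensing genes, 1 passed in each population, where 2.02% of all genes passed in nTregs and 1.76% in CD4 cells. Sting1, the adaptor of DNA sensing, rose in nTregs (0.60, adjusted p = 0.0143), and Aim2, a sensor of DNA in the cytosol, rose in CD4 cells (0.47, adjusted p = 0.0231). Leaving out 1 array lost Sting1 in 2 of 12 cases and Aim2 in 4. In nTregs Aim2 lay at 9.425, 9.301 and 9.316 in PBS and at 9.795, 9.708 and 9.674 in AzaC, without overlap. Averaged over both populations 1 of the 19 passed, where 3.71% of all genes did. This was Aim2 (0.43, adjusted p = 0.00263), and the call held under all 21 alternatives. Irf3 differed by 0.01 in nTregs and -0.19 in CD4 cells. Of 15 silencers of endogenous retroviruses, 0 passed in nTregs (4 at unadjusted p under 0.05, where 16.8% of all genes were). In CD4 cells 2 passed, where 1.76% of all genes did. Hells, a chromatin remodeller that DNA methylation needs, rose (0.63, adjusted p = 0.00637), and the histone chaperone subunit Daxx fell (-0.62, adjusted p = 0.0416). The Hells call held under all 22 alternatives, and that of Daxx was lost in 9, 8 of them with 1 array left out (adjusted p 0.0646 to 0.185).

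The interferon-stimulated genes outside the set held larger differences than any gene inside it. Of 46 measured, 7 passed in nTregs (5 higher and 2 lower), where 2.02% of all genes did, with a median of 0.21. In CD4 cells 6 passed (3 higher and 3 lower), where 1.76% of all genes did, with a median of 0.01. Daxx, named above as a silencer, is on this list too and is among the 3 lower genes. Parp12, another transferase of single ADP-ribose units, lay at 8.08, 8.53 and 8.55 in PBS nTregs and at 9.57, 9.74 and 9.65 in AzaC nTregs, and rose by 1.27 log2 (SE 0.17, adjusted p = 0.0013). In CD4 cells Parp12 lay at 8.30, 8.23 and 8.59 in PBS and at 8.83, 9.42 and 9.35 in AzaC, and rose by 0.83 (adjusted p = 0.0211). No array of one treatment overlapped with the other in either population. The chemokine Cxcl10 lay at 6.94, 6.66 and 6.80 in PBS nTregs and at 7.76, 7.79 and 7.94 in AzaC nTregs (1.03, adjusted p = 0.000568). Lgals3bp (0.55, adjusted p = 0.0286) and Uba7, the enzyme that activates ISG15 (0.68, adjusted p = 0.0348), rose in nTregs as well. The array nTreg PBS 1 was low for both (Lgals3bp 9.79 beside 10.15 and 10.29, Uba7 9.453 beside 10.13 and 10.11). Neither call was lost without that array. In CD4 cells Ifitm2 and Ifitm3, membrane proteins that block virus entry, rose by 1.12 and 1.14 (adjusted p = 0.000345 and 0.000364), and Phf11b fell (-0.49, adjusted p = 0.0347). Phf11b was lower in AzaC nTregs too (-0.48, adjusted p = 0.0375, called in 11 of 22 alternatives). Both Ifitm genes were also higher in nTregs than in CD4 cells under PBS (1.39 and 1.16, adjusted p = 8.11e-06 and 6.45e-05). Their means in AzaC CD4 cells were 11.53 and 9.99, beside 11.8 and 10.01 in PBS nTregs. Whether their rise went with that of Foxp3 and Il2ra in the CD4 sort was not tested. In nTregs the calls for Parp12 and Cxcl10 held under all 22 alternatives, whereas Lgals3bp was lost in 5 (adjusted p up to 0.253) and Uba7 in 8 (up to 0.176). In CD4 cells Ifitm2 and Ifitm3 held under all 22, Parp12 was lost in 4 (adjusted p 0.0782 to 0.107) and Phf11b in 10 (up to 0.15). Averaged over both populations, 10 of the 46 passed (8 higher and 2 lower), where 3.71% of all genes did. In this average Parp12 stood at 1.05, Ifitm3 at 0.79, Ifitm2 at 0.76, Cxcl10 at 0.66, Lgals3bp at 0.50 and Phf11b at -0.48. The calls of these genes held under all 21 alternatives. For the difference between AzaC effects 0 of the 46 passed, where 0.203% of all genes did. These genes were taken from lists drawn up with earlier results of these data known, so their counts are a description.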

How the data were processed

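Members and gene lists were chosen with earlier results of these data known. The submitters' processing notes name RMA and Affymetrix Expression Console for the deposited log2 values. Per the labels' protocols, total RNA was labelled with a WT Pico kit. The build of the array annotation was not given in the sources used here. Of 41345 rows, 23521 carried 1 gene symbol, 1814 several and 16010 no name, and the brightest row was kept for the 1082 genes with several rows. The 22180 genes were fitted with 1 mean per group over 12 arrays (limma 3.58.1, R 4.3.3, statmod 1.5.0, 8 residual and 5.95 prior degrees of freedom), without a filter on dim genes, and genes were called at adjusted p under 0.05 (Benjamini-Hochberg). The fit was tested on simulated data. The median SE was 0.13 log2 for a difference of 2 groups, 0.18 for the difference between AzaC effects and 0.092 for their mean. The number of arrays limits the precision. Any member could be named, and up to 4 called genes per pathway list and comparison by smallest p, beside Irf3, Ifnar1, Ifnar2, Ifnb1, Ifng, Foxp3, Cd4 and Cd8a. A gene named in 1 comparison could be given in the others. Cd8b1, Cd3e, Nkg7, Itgam, Il2ra, Cd79b, Cd209a and Pacsin1 were named from the marker lists after their values were seen. Same-numbered arrays correlated over 0.1 in 3 of 18 pairs, so replicate numbers were not taken as pairs. The alternatives tried were removal of dim genes, centred arrays, repeated quantile normalisation, mean over rows, fits of the compared groups alone, replicate blocks, array weights, an intensity trend and arrays left out. Promoters came from RefSeq and were searched in Python 3.11.15.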

Additional observations from a re-analysis of the deposited data

How the results depend on the processing

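Of 5705 values of single genes under the 22 alternatives, 5348 kept their side of the threshold, 160 of these not called and with a changed sign, 76 newly passed, 281 no longer passed, and no called gene reversed. The number of the 35 genes that passed moved as follows, and the cause was not tested. For AzaC in nTregs (0) it was 2 with the dimmest 25% of genes removed, 2 with centred arrays, 1 with the fixed replicate block, 8 with array weights, 1 with an intensity trend, and 3 without nTreg PBS 1 and CD4 PBS 3 together. Of all genes, 3.4%, 2.22%, 2.03%, 5.82%, 2.07% and 2.4% passed in these settings, beside 2.02% in the main fit. For AzaC in CD4 cells (1) it was 2 after repeated quantile normalisation, 4 with array weights and 2 without both arrays. Of all genes, 1.5%, 5.82% and 3.06% passed there, beside 1.76%. For the difference between AzaC effects (0) it was 3 with weights and 1 without both (1.81% and 0.347% of all genes, beside 0.203%). For the mean effect (4) it was 2 when centred and 10 with weights (3.33% and 8.17% of all genes, beside 3.71%). For the populations under PBS (8) it was 4 when fitted alone, 12 with weights and 6 without both, and with AzaC (4) it was 7 when fitted alone, 10 with weights and 9 without both. Of all genes, 2.92%, 11.4% and 6.05% passed under PBS, beside 8.01% in the main fit. With AzaC 10.6%, 15.8% and 13.4% did, beside 6.75%, so calls rose over all genes too. The median of the 35 for AzaC in nTregs was 0.30 when centred, 0.17 by quantile normalisation, 0.18 with weights and 0.17 without both. In CD4 cells it was 0.018 without dim genes and 0.004 when centred, for the difference between effects 0.21 when centred and 0.018 by quantile normalisation, and for the mean effect 0.109 without both. Under PBS it was -0.158 without dim genes, -0.165 when centred, -0.045 by quantile normalisation, -0.04 with weights and -0.076 without both, and with AzaC 0.016 when centred, -0.093 by quantile normalisation and -0.025 with weights. Leaving out 1 array at a time gave, in the order of these 6 comparisons, counts of 0 to 2, 0 to 2, 0 to 0, 2 to 5, 4 to 9 and 1 to 7, with medians of 0.166 to 0.249, 0.013 to 0.098, 0.046 to 0.15, 0.111 to 0.165, -0.131 to -0.071 and -0.098 to -0.041. The shares of all genes were 0.839% to 2.02%, 0.739% to 4.71%, 0.0406% to 0.311%, 2.27% to 5.61%, 4.7% to 8.39% and 4.04% to 11.1%. The fixed replicate block gave counts of 1, 1, 0, 3, 8 and 3, where 2.03%, 1.71%, 0.18%, 3.66%, 8.23% and 6.47% of all genes passed. The random one, at a consensus correlation of -0.01, gave 0, 1, 0, 4, 8 and 3, where 1.93%, 1.69%, 0.176%, 3.65%, 7.84% and 6.68% did. Same-numbered arrays share only a number, however: their correlations ran from -0.10 to 0.19, and 4 of 12 arrays correlated best with their own number.

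With 3 arrays per group and a median SE of 0.13 log2, small shifts of single genes were not detectable. The table holds no detection call, so values of Tlr3, Mx1, Mx2 and Ifnb1, all below the array medians, cannot be set apart from background. Ifi35, measured on 2 rows, differed by 0.24 on the brighter and -0.20 on the dimmer in nTregs with AzaC. Fits of only the groups compared cannot give the difference between effects or their mean, which use all 4 groups.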
